A study of Homo sapiens with 12 samples.

Results

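The metallothioneins, with the transcription factor and the exporter that govern cellular zinc beside them, were followed through 2 prostate cancer cell lines given a glucocorticoid. The genes listed were MT1A, MT1E, MT1F, MT1G, MT1H, MT1M, MT1X, MT2A, MTF1 and SLC30A1. Members were matched by the gene symbol of each array row, and 9 of the 10 had a row, among 17687 genes measured in all. Each of the 9 was read by 1 row, and MT1A had no row under its symbol and was not analysed here.

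The lines are labelled LNCaPabl-Abi and LNCaPabl-Enza, epithelial prostate cancer lines named after LNCaP, an androgen-sensitive line from a lymph node metastasis, and the labels do not spell out Abi or Enza. Each line was given DMSO (Abi_Ctrl, Enza_Ctrl) or 100 nM dexamethasone, a synthetic glucocorticoid, for 24 h (Abi_Dex, Enza_Dex), with 3 arrays in each of the 4 groups. The study's title names glucocorticoid receptor signalling as its question. Total RNA was hybridised to 12 single-colour Affymetrix arrays, and the values are log2 expression values per gene, so a difference of 1 is a doubling on the deposited scale. The labels give medium with fetal calf serum, for LNCaP, and name no selecting drug as present in any group. Each group is 1 line under 1 treatment, and the sources used here do not say whether the triplicates were separate cultures.

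Metallothioneins are small cysteine-rich proteins that bind zinc, copper and cadmium and buffer the free metal of the cell. MTF1 is the zinc-sensing transcription factor that binds metal response elements in their promoters, and SLC30A1 (ZnT1) carries zinc out of the cell through the plasma membrane and is itself a target of MTF1. Metallothionein genes are also textbook glucocorticoid-inducible genes, and prostate epithelium is known for its high zinc content.

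In the RefSeq gene order, 16 metallothionein genes and pseudogenes lie side by side on chromosome 16, 11 of them coding and 5 pseudogenes, with 0 other coding genes between them. The order runs MT4, MT3, MT2A, MT1L, MT1E, MT1M, MT1JP, MT1A, MT1DP, MT1CP, MT1B, MT1F, MT1G, MT1H, MT1IP and MT1X. MTF1 and SLC30A1 are on chromosome 1. The MT1 genes are close paralogs with near-identical coding sequences, so a row named for one of them can pick up RNA of another. The assignment of a signal to 1 MT1 gene is therefore uncertain, and the probe sequences of the rows were not used here.

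The RefSeq promoter table (GRCh38.p14) held 5 of the 10 members, and the 250 bases before each start are printed because they hold the elements through which zinc is known to act on these genes. Capitals mark every match, on either strand, to a metal response element core, TGCACNC or TGCGCNC, with N for any base. The sequences run 5′ to 3′ on the gene's strand, MT2A from chr16:56608334-56608583 (+), MT1X from chr16:56682220-56682469 (+), MT1H from chr16:56669564-56669813 (+), SLC30A1 from chr1:211579162-211579411 (-) and MTF1 from chr1:37859593-37859842 (-).
MT2A: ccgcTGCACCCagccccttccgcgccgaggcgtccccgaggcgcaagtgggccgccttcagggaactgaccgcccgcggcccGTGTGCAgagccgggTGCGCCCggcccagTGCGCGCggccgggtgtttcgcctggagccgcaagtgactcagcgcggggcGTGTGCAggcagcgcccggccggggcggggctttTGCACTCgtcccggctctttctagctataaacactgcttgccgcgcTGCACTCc
MT1X: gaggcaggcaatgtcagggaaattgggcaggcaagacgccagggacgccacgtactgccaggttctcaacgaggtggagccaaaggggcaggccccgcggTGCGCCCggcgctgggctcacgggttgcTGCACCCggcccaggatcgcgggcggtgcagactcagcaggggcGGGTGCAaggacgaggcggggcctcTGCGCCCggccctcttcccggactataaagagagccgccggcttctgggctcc
MT1H: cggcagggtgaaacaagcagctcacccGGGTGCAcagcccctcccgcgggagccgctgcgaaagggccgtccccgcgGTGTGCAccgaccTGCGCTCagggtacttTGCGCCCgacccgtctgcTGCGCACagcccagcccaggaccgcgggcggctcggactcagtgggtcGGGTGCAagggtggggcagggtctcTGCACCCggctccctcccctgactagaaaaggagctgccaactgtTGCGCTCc
SLC30A1: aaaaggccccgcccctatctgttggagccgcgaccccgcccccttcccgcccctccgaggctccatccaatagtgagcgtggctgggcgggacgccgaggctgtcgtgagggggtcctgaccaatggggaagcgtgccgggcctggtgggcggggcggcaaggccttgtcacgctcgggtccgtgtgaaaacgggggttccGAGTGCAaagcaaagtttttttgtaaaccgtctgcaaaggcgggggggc
MTF1: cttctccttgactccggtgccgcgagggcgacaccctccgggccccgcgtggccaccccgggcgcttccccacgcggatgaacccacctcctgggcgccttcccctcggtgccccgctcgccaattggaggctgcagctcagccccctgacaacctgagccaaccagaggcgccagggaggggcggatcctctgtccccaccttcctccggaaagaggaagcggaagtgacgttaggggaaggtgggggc

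The 3 metallothionein promoters were dense in these cores. MT1H held 8 cores, 4 of each form. MT2A held 7, 5 with TGCACNC and 2 with TGCGCNC, and MT1X held 4, 2 of each form. SLC30A1 held 1 core, 49 to 43 bases before its start, and MTF1 held 0. Of the 35116 promoter windows of the same length, 24.8% held at least 1 core of either form, 0.37% at least 4 and 0.0513% at least 6. MT1H and MT1X placed a core at the same distances from the start, 78 to 72 bases and 53 to 47 bases upstream. A TATAAA stood 29 to 24 bases before the start in MT2A and 30 to 25 bases before it in MT1X, and 10.7% of all windows held one. MT2A also held 1 TGACTCA, the AP-1 motif, which was in 4.2% of windows.

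None of the 5 windows held the palindromic glucocorticoid response element (AGAACA, 3 bases of any kind, TGTTCT), or AGAACA, 1 arm of it, on either strand. Among all windows 1 (0.00285%) held the first and 12.4% held the second, so these letters were absent from 250 bases only, and more distant sequence was not searched. Aligned end to end, 66.4% of the 250 positions were identical between MT1H and MT1X, 61.2% between MT1H and MT2A and 58.4% between MT1X and MT2A, against 53.2% between the unrelated MTF1 and SLC30A1.

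Array Enza_Ctrl 2 stood apart from the other 11. Its median Pearson r with the other arrays, across genes, was 0.873 against 0.987 to 0.991, and the mean of 23 background control rows on it was 5.50 against 4.50 to 4.60. Differences of the 9 genes that rest on Enza_Ctrl are therefore given with all 12 arrays and again without this array. Luminal prostate markers, 7 of 9 measured, averaged 10.75 to 12.16 per array. Over the 11 arrays the averages were 3.99 to 4.37 for 3 basal markers, 4.68 to 5.10 for 5 fibroblast markers, 4.49 to 5.22 for 5 immune markers and 3.71 to 4.05 for 5 endothelial markers, and on Enza_Ctrl 2 these read 5.40, 6.46, 6.07 and 5.39. SGK1, a glucocorticoid receptor target, checked the treatment. It read 6.52, 6.20 and 5.82 in Abi_Ctrl against 13.59, 13.29 and 13.83 in Abi_Dex, and 6.13, 6.17 and 6.89 in Enza_Ctrl against 9.66, 9.99 and 13.20 in Enza_Dex. It was called in LNCaPabl-Abi (7.39 ± 0.73, limma adjusted p = 0.00461) and not in LNCaPabl-Enza (4.55 ± 0.73, adjusted p = 0.523, and 4.43 ± 0.70, adjusted p = 0.269, without Enza_Ctrl 2), although its groups there did not overlap.

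In LNCaPabl-Abi no metallothionein and neither zinc regulator passed the test after dexamethasone, and in LNCaPabl-Enza none did either. Few genes of any kind passed, 0.0283% of all genes in LNCaPabl-Abi with all arrays and 0.141% without Enza_Ctrl 2. In LNCaPabl-Enza the share was 0.0% with either set. With so few passing, these nulls say little about the metallothioneins in particular. The metallothioneins read higher after dexamethasone in LNCaPabl-Enza, most in MT1X and MT1H when Enza_Ctrl 2 was left out, but the DMSO and dexamethasone arrays of each overlapped. Between the lines the group mean of all 7 was lowest in Enza_Ctrl, with or without its replicate 2. Much of the variation was shared by the metallothioneins from array to array within groups. In such bulk RNA, fewer cells with a transcript and less of it per cell cannot be told apart.

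**Figure D1:**
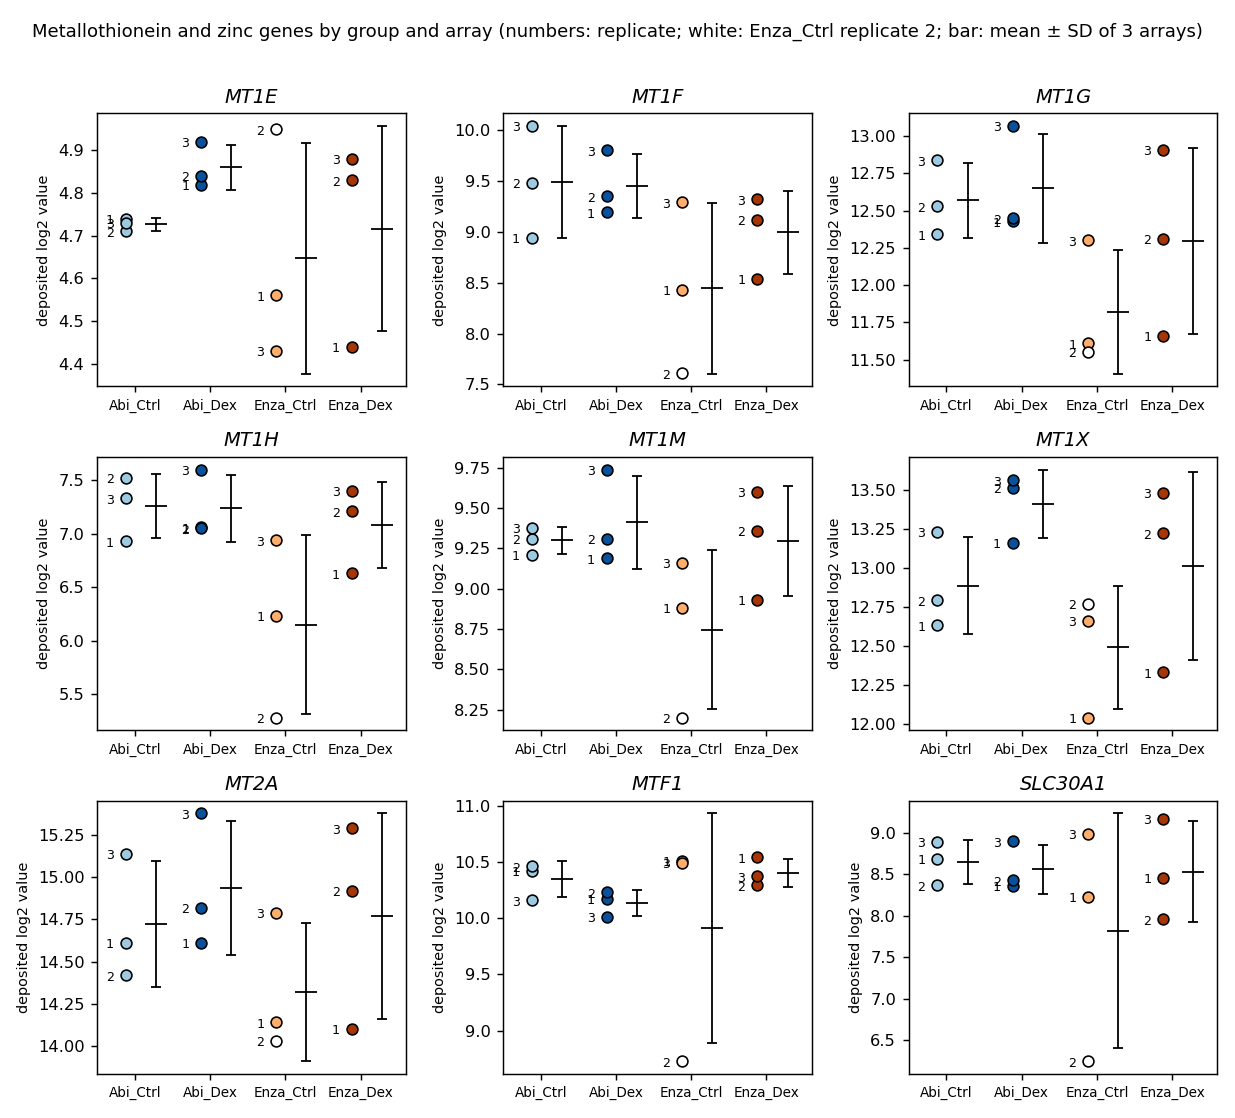
Deposited log2 value (y axis, a separate scale for each gene) of the 9 measured genes by group (x axis), 1 point per array with its replicate number, Enza_Ctrl replicate 2 in white, and the bar showing the mean ± SD of 3 arrays. Enza_Ctrl replicate 2 was far below the other arrays for MTF1 (8.73) and SLC30A1 (6.25), and MT1X reached its highest values in Abi_Dex (13.16 to 13.56).

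MTF1, the zinc sensor, varied little outside Enza_Ctrl 2. Its log2 values on replicates 1, 2 and 3 were 10.42, 10.46 and 10.16 in Abi_Ctrl, 10.17, 10.23 and 10.01 in Abi_Dex, 10.51, 8.73 and 10.49 in Enza_Ctrl, and 10.54, 10.29 and 10.37 in Enza_Dex. Only Enza_Ctrl 2 left the band from 10.01 to 10.54. Dexamethasone left MTF1 at -0.21 ± 0.40 (log2 difference ± SE) in LNCaPabl-Abi, and the SE was 0.17 in the fit without Enza_Ctrl 2 (95% interval -0.57 to 0.15). In LNCaPabl-Enza the difference was 0.49 ± 0.40 with all arrays and -0.10 ± 0.19 without Enza_Ctrl 2, so its sign followed that array. All 3 arrays of Enza_Dex lay above all 3 of Abi_Dex, by a mean of 0.26 ± 0.17 in the fit over 11 arrays (limma adjusted p = 0.627).

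SLC30A1, the zinc exporter, was as dependent on that array. It read 8.69, 8.37 and 8.89 in Abi_Ctrl, 8.36, 8.43 and 8.90 in Abi_Dex, 8.23, 6.25 and 8.99 in Enza_Ctrl, and 8.46, 7.96 and 9.17 in Enza_Dex. The groups overlapped in every comparison, and replicate 3 was the highest array of each group. The dexamethasone difference in LNCaPabl-Enza was 0.71 ± 0.57 with 12 arrays and -0.08 ± 0.32 with 11 (95% interval -0.77 to 0.61), and in LNCaPabl-Abi it was -0.08 ± 0.29 in the fit over 11 arrays. Enza_Ctrl minus Abi_Ctrl was -0.83 ± 0.57 and then -0.04 ± 0.32.

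MT2A, the main housekeeping metallothionein of human cells, read 14.03 or more on every array. Its values were 14.61, 14.42 and 15.14 in Abi_Ctrl, 14.61, 14.82 and 15.38 in Abi_Dex, 14.14, 14.03 and 14.79 in Enza_Ctrl, and 14.10, 14.92 and 15.29 in Enza_Dex. The group means were 14.72 ± 0.37 (SD, n = 3), 14.94 ± 0.40, 14.32 ± 0.41 and 14.77 ± 0.61 in the same order. All 4 groups overlapped, and replicate 3 was highest in each. Dexamethasone moved the mean by 0.21 ± 0.36 in LNCaPabl-Abi and by 0.45 ± 0.36 in LNCaPabl-Enza, or 0.30 ± 0.34 without Enza_Ctrl 2.

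MT1X had the largest dexamethasone difference of the members in LNCaPabl-Abi. It read 12.63, 12.79 and 13.23 in Abi_Ctrl, 13.16, 13.51 and 13.56 in Abi_Dex, 12.04, 12.77 and 12.66 in Enza_Ctrl, and 12.33, 13.22 and 13.48 in Enza_Dex. In LNCaPabl-Abi only the highest DMSO array reached the lowest dexamethasone array. In LNCaPabl-Enza 2 of the 3 dexamethasone arrays were above every DMSO array, and replicate 1 was the lowest array of both groups. The difference was 0.52 ± 0.33 in LNCaPabl-Abi (95% interval -0.20 to 1.25, fold 1.44, limma adjusted p = 1.00), with an SE of 0.28, an interval of -0.07 to 1.12 and an adjusted p of 0.728 in the fit over 11 arrays. In LNCaPabl-Enza it was 0.53 ± 0.33 with 12 arrays (95% interval -0.20 to 1.25). Without Enza_Ctrl 2 it was 0.66 ± 0.31 (-0.0003 to 1.33, fold 1.58), with a limma unadjusted p of 0.0501 and an adjusted p of 1.00. All 4 intervals include 0 and reach beyond a doubling.

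MT1G and MT1M, 2 further inducible MT1 genes, were lower on all Enza_Ctrl arrays than on any Abi_Ctrl array. MT1G read 12.34, 12.53 and 12.84 in Abi_Ctrl, 12.43, 12.45 and 13.07 in Abi_Dex, 11.61, 11.55 and 12.30 in Enza_Ctrl, and 11.66, 12.31 and 12.91 in Enza_Dex. MT1M read 9.21, 9.31 and 9.38, then 9.19, 9.31 and 9.74, then 8.88, 8.20 and 9.16, then 8.93, 9.36 and 9.60 in the same groups. Neither separated DMSO from dexamethasone in either line. The dexamethasone difference of MT1G was 0.08 ± 0.35 for the Abi line and 0.47 ± 0.35 for the Enza line, or 0.34 ± 0.33 without Enza_Ctrl 2. That of MT1M was 0.12 ± 0.29 and 0.55 ± 0.29, or 0.28 ± 0.23 without the array.

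MT1F and MT1H, neighbours of MT1G in the cluster, had their lowest values on Enza_Ctrl 2, well below their other arrays. MT1F read 8.94, 9.48 and 10.04 in Abi_Ctrl, 9.19, 9.35 and 9.80 in Abi_Dex, 8.43, 7.61 and 9.29 in Enza_Ctrl, and 8.54, 9.12 and 9.32 in Enza_Dex. MT1H read 6.93, 7.52 and 7.33, then 7.06, 7.05 and 7.60, then 6.23, 5.28 and 6.94, then 6.63, 7.21 and 7.40. The Enza_Ctrl and Enza_Dex arrays of both genes overlapped even with that array counted. Without it, the Enza_Ctrl mean of MT1F moved from 8.44 ± 0.84 (SD, n = 3) to 8.86 ± 0.61 (n = 2) and that of MT1H from 6.15 ± 0.83 to 6.59 ± 0.50. After dexamethasone MT1F differed by 0.55 ± 0.43 in LNCaPabl-Enza with 12 arrays and by 0.13 ± 0.34 (95% interval -0.58 to 0.85) without that array, and MT1H by 0.93 ± 0.39 and 0.49 ± 0.29. In LNCaPabl-Abi both were nearly level, at -0.04 ± 0.43 for MT1F and -0.02 ± 0.39 for MT1H.

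MT1E was the dim member. Its values, from 4.43 to 4.95 over the 12 arrays, lay about the mean of the background control rows, so little can be read from them. It was the only member whose LNCaPabl-Abi groups did not overlap, with 4.74, 4.71 and 4.73 in Abi_Ctrl and 4.82, 4.84 and 4.92 in Abi_Dex, a difference of 0.13 ± 0.21. Its Enza_Ctrl values were 4.56, 4.95 and 4.43, with the highest on the array of raised background, and its Enza_Dex values were 4.44, 4.83 and 4.88. The difference there was 0.08 ± 0.21 with 12 arrays and 0.23 ± 0.19 with 11.

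The response of LNCaPabl-Abi to dexamethasone was small across the list. Of the 9 genes 5 were above 0 and 4 below, where 50.4% of all genes were above. The median log2 difference was 0.08 against 0.0023 over all genes, and the range was -0.21 to 0.52. With limma's adjusted p under 0.05 as the threshold, 0 of 9 were called, where 0.0283% of all genes were called with 12 arrays and 0.141% with 11. At an unadjusted p under 0.05 the count was also 0, where 1.36% and 7.09% of all genes passed. MT1E alone had all dexamethasone arrays above all DMSO arrays, a pattern seen in 6.26% of all genes, and no member lay wholly lower, where 6.01% of genes did.

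In LNCaPabl-Enza 9 of 9 genes were above 0 with 12 arrays, where 54.0% of all genes were, with a median of 0.53 against 0.06 over all genes. Without Enza_Ctrl 2 the count was 7 of 9, where 51.0% of all genes were above 0. MTF1 and SLC30A1 turned below 0, and the median was 0.28 against 0.0049. Because the metallothionein rows vary together and can share RNA, their signs may not be separate observations in any comparison here. None of the 9 was called with either set of arrays, and the share of all genes called was 0.0% in both. MT1H alone had an unadjusted p under 0.05 with 12 arrays, at 0.93 ± 0.39 (95% interval 0.07 to 1.79, fold 1.90, limma adjusted p = 0.523), where 3.96% of all genes passed that threshold. Without the array its difference was 0.49 ± 0.29 (95% interval -0.12 to 1.11, adjusted p = 1.00), and no member passed, where 3.0% of all genes did. No member separated its Enza_Dex from its Enza_Ctrl arrays with either set, while 3.96% of genes lay wholly higher and 4.77% wholly lower with 12 arrays, and 7.93% each way with 11.

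**Figure D2:**
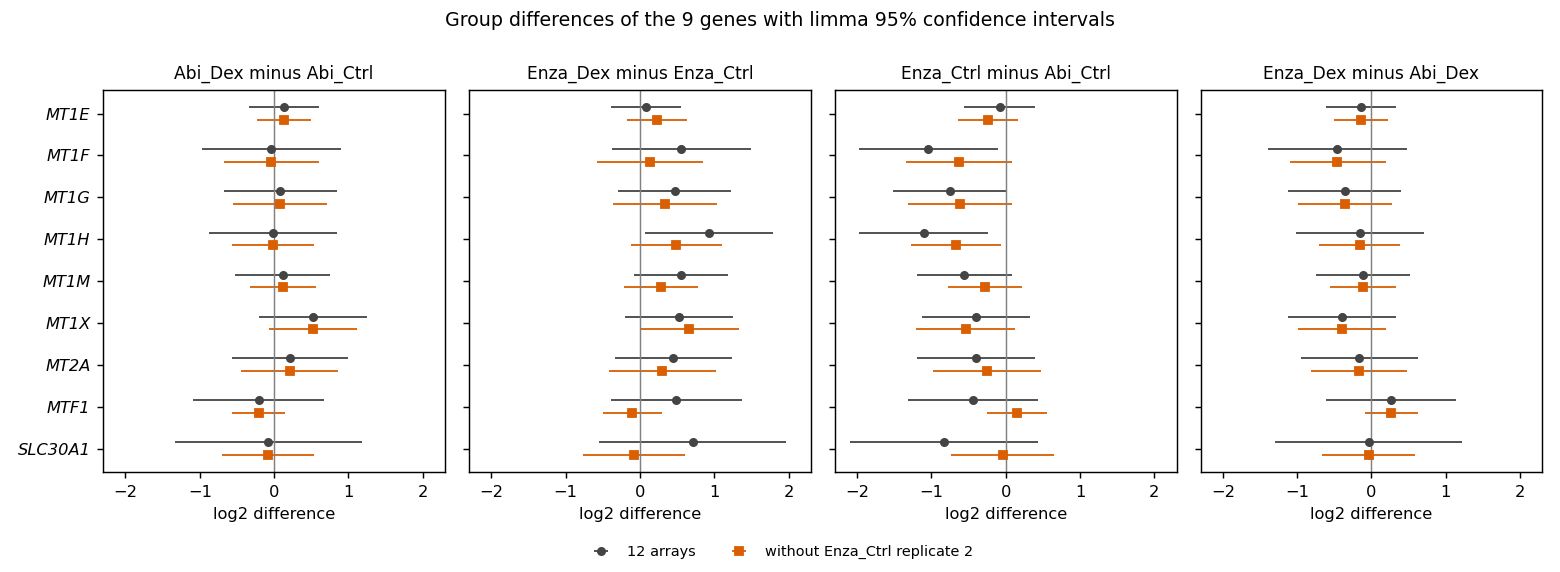
Log2 difference between group means (x axis) of the 9 genes (y axis) in 4 comparisons, with limma 95% confidence intervals, for all 12 arrays (dots) and without Enza_Ctrl replicate 2 (squares). All intervals for Abi_Dex minus Abi_Ctrl and Enza_Dex minus Abi_Dex include 0, and the MTF1 and SLC30A1 values that involve Enza_Ctrl shift most when the array is left out, MTF1 from 0.49 to -0.10 in Enza_Dex minus Enza_Ctrl.

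Whether the 2 lines responded unequally was tested as an interaction. The LNCaPabl-Enza response minus the LNCaPabl-Abi response was above 0 for 8 of 9 genes, median 0.44 against 0.04 over all genes, and for 9 of 9 without Enza_Ctrl 2, median 0.14 against 0.0029. Of all genes 52.2% and 50.3% were above 0. Here too the metallothionein signs may not be separate observations. None of the 9 was called with either set, nor was any other gene (0.0%), and 0 of 9 had an unadjusted p under 0.05, where 1.5% and 3.2% of all genes did. MT1H showed the widest gap, 0.95 ± 0.55 and then 0.51 ± 0.39. MT1F followed at 0.59 ± 0.60 and then 0.17 ± 0.45, MT1M at 0.44 ± 0.41 and then 0.17 ± 0.31, MT1G at 0.39 ± 0.49 and then 0.26 ± 0.44, and MT2A at 0.24 ± 0.51 and then 0.09 ± 0.46. The zinc exporter SLC30A1 went from 0.79 ± 0.81 to 0.0025 ± 0.43 and MTF1 from 0.70 ± 0.57 to 0.11 ± 0.25, so both values rested mostly on Enza_Ctrl 2. MT1E turned from -0.06 ± 0.30 to 0.10 ± 0.26. For MT1X it was 0.0019 ± 0.47 and then 0.14 ± 0.42, with an interval of -0.75 to 1.03, so a difference of up to about 1 log2 unit between the lines could not be resolved.

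Without dexamethasone the metallothioneins read lower in LNCaPabl-Enza. Enza_Ctrl minus Abi_Ctrl was negative for 9 of 9 genes with 12 arrays, median -0.56 against -0.03 over all genes, and for 8 of 9 without Enza_Ctrl 2, median -0.28 against -0.0022. Of all genes 48.0% and 49.6% were above 0. The metallothionein rows vary together and can share RNA, so their signs may not be separate observations. None of the 9 genes was called by limma, where 0.266% and 1.29% of all genes were. MT1H was at -1.10 ± 0.39 (95% interval -1.97 to -0.24, adjusted p = 0.412) and -0.67 ± 0.29 without the array (-1.28 to -0.06, adjusted p = 0.382). MT1F was at -1.04 ± 0.43 and -0.63 ± 0.34, with adjusted p-values of 0.432 and 0.531. These were the 2 members with an unadjusted p under 0.05 with 12 arrays, and MT1H was the 1 member with 11, where 11.3% and 11.1% of all genes passed.

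The remaining members differed less between the untreated lines. MT1G was at -0.75 ± 0.35 and -0.62 ± 0.33, and MT1X at -0.40 ± 0.33 and -0.53 ± 0.31. MT2A was at -0.40 ± 0.36 and -0.25 ± 0.34. MT1G and MT1M were lower on every Enza_Ctrl array, 2 of 9 genes where 8.22% of all genes were, and 0 of 9 were higher on every array, where 5.95% were. Without Enza_Ctrl 2 MT1E joined them, 3 of 9 where 12.5% were. MTF1 was higher on both remaining Enza_Ctrl arrays, at 10.51 and 10.49 against 10.46 at most in Abi_Ctrl, where 11.5% of genes were higher in this way. Its difference was 0.15 ± 0.19, and -0.44 ± 0.40 with Enza_Ctrl 2 included. MT1M was at -0.56 ± 0.29 and -0.28 ± 0.23, and the dim MT1E at -0.08 ± 0.21 and -0.24 ± 0.19.

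Under dexamethasone the differences between the lines were smaller in the median. Enza_Dex minus Abi_Dex was negative for 8 of 9 genes, median -0.16 against -0.01, with MT1F at -0.46 ± 0.43, MT1X at -0.39 ± 0.33, MT1G at -0.36 ± 0.35 and MTF1 the exception at 0.26. Of all genes 48.6% were above 0. MT2A was at -0.17 ± 0.36, MT1H at -0.16 ± 0.39, MT1E at -0.14 ± 0.21, MT1M at -0.12 ± 0.29 and SLC30A1 at -0.04 ± 0.57. With each array left out in turn the median over the 9 genes ran from -0.36 to 0.02. None was called, where 0.277% of all genes were with 12 arrays and 2.28% with 11, and 0 of 9 had an unadjusted p under 0.05, where 4.14% and 11.5% did. MTF1 was the only member whose groups did not overlap, where 9.43% of all genes were wholly higher and 10.7% wholly lower. These comparisons share arrays: Enza_Ctrl enters the dexamethasone difference of LNCaPabl-Enza and the comparison of untreated lines with opposite signs.

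By group mean, Enza_Ctrl was lowest for 7 of the 7 metallothioneins with either set of arrays, and the highest was Abi_Dex for 5 and Abi_Ctrl for 2, MT1F and MT1H. The signs of the 7 in the comparison of the untreated lines, and after dexamethasone in LNCaPabl-Enza, were the same after quantile normalization. For MT1X the means were 12.49 ± 0.39 in Enza_Ctrl, 12.88 ± 0.31 in Abi_Ctrl, 13.01 ± 0.60 in Enza_Dex and 13.41 ± 0.22 in Abi_Dex (SD, n = 3). Neighbours in that order did not differ beyond their spread. For MT1G the order was 11.82 ± 0.42, 12.29 ± 0.62 in Enza_Dex, 12.57 ± 0.26 in Abi_Ctrl and 12.65 ± 0.36, and again each neighbouring pair overlapped.

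**Figure D3:**
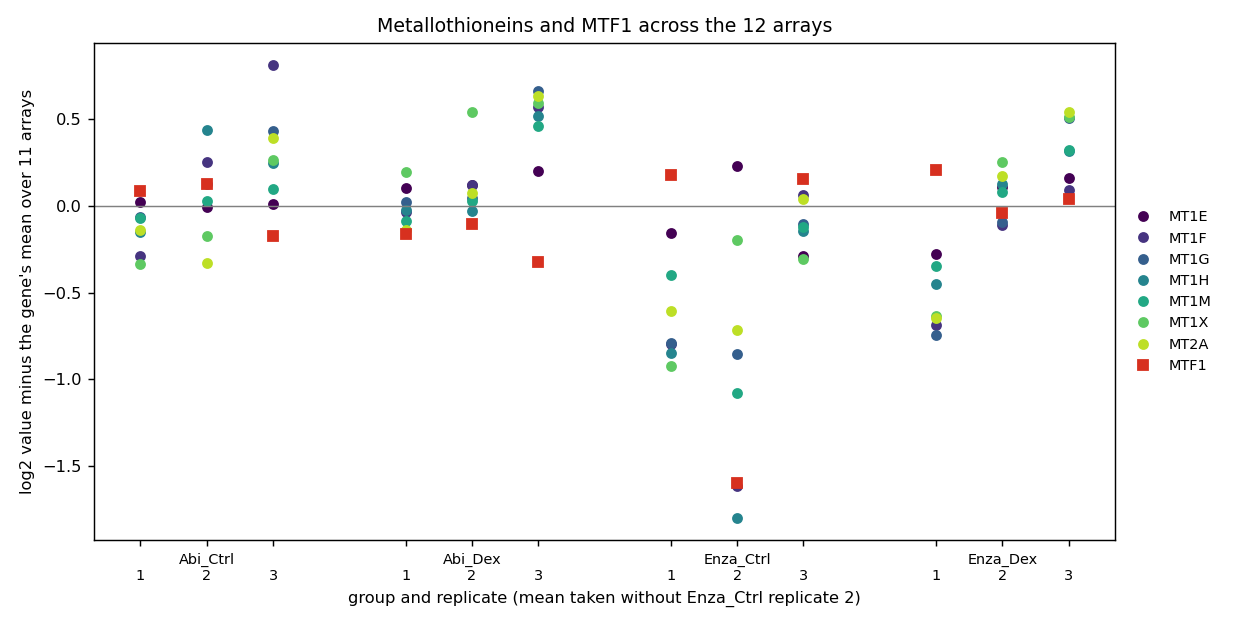
Log2 value of the 7 metallothioneins (circles) and MTF1 (squares) minus the gene's own mean over 11 arrays (y axis), by group and replicate (x axis). The metallothioneins lie together on most arrays, low on Enza_Ctrl replicate 1 and Enza_Dex replicate 1 (mean deviations -0.65 and -0.54) and high on Abi_Dex replicate 3 (0.52), where MTF1 was at its lowest outside Enza_Ctrl replicate 2 (10.01).

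Array-to-array variation within groups was shared. The mean deviation of the 7 metallothioneins from their own gene means was -0.15, 0.05 and 0.32 on the Abi_Ctrl arrays, 0.01, 0.13 and 0.52 on Abi_Dex, -0.65, -0.86 and -0.12 on Enza_Ctrl, and -0.54, 0.08 and 0.35 on Enza_Dex. The array numbered 3 was highest in every group, and the spread within a group was of the same order as the differences between groups. MT1F, MT1G, MT1M, MT2A and SLC30A1 each had replicate 3 as the highest array in all 4 groups, as 563 of 17687 genes (3.18%) did. MT1H and MT1X had it in 3 groups, MT1E in 2 and MTF1 in 0. The labels do not say what the replicate numbers stand for.

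In LNCaPabl-Enza the arrays numbered 3 also stood out in glucocorticoid receptor transcript. NR3C1, which encodes the receptor, read 6.51, 7.43 and 10.37 in Enza_Ctrl and 6.72, 6.38 and 9.03 in Enza_Dex, and the only Enza_Dex array with SGK1 above 10 was replicate 3. In LNCaPabl-Abi NR3C1 read 11.14, 11.30 and 11.49 in Abi_Ctrl and 9.44, 9.99 and 10.16 in Abi_Dex. The part of these differences in the metallothionein values was not tested.

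The residual SD within groups, over the 11 arrays, was 0.47 for MT2A, 0.46 for MT1F, 0.45 for MT1G, 0.44 for SLC30A1, 0.42 for MT1X and 0.37 for MT1H, against a median of 0.26 over all genes. MT1M (0.25) was near that median, and MT1E (0.14) and MTF1 (0.13) were below it. The intervals above also depend on the eBayes step of limma and on the set of arrays. With 12 arrays the residual SD was 0.52 for MTF1 and 0.79 for SLC30A1, against a median of 0.43 over all genes. For MT2A, MT1G and MT1X it was little changed, at 0.46, 0.43 and 0.41.

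Across the 11 arrays the metallothioneins varied together. For 6 of them, MT1E left out, the 15 pairwise Pearson correlations ran from 0.76 to 0.94 with a median of 0.87, and after each group's mean was subtracted from 0.78 to 0.96 with a median of 0.89. MT1E correlated with the other 6 at 0.53 to 0.84. SLC30A1, also an MTF1 target, followed them less, at 0.05 to 0.58 with a median of 0.48. MTF1 ran the other way, at -0.81 to -0.61 with a median of -0.72, and at -0.80 to -0.53 within groups. With Enza_Ctrl 2 included, MTF1 and the metallothionein mean correlated at 0.35 in place of -0.78, so the sign rests on leaving that array out. These 11 points share their arrays, lines and treatments, and paralogous rows can share RNA, so the values are a description.

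**Figure D4:**
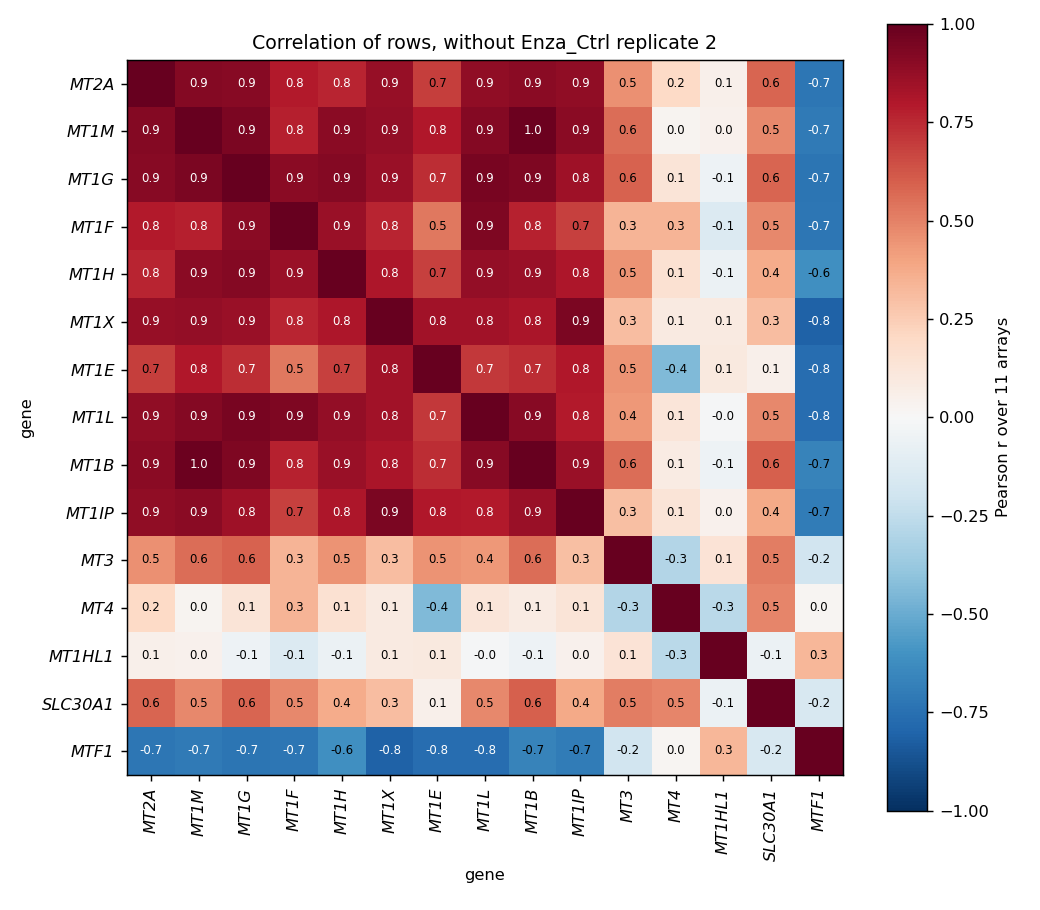
Pearson r over 11 arrays (colour and number, without Enza_Ctrl replicate 2) between the log2 values of the 9 measured genes and 6 other metallothionein rows, genes on both axes. The block of MT2A, MT1M, MT1G, MT1F, MT1H and MT1X is red throughout (0.76 to 0.94), the MTF1 row is blue against it (-0.81 to -0.61), and MT4 and MT1HL1 stand apart from the block.

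Other metallothionein rows were read beside the members, 6 of 13 listed having one. MT1L, a transcribed pseudogene between MT2A and MT1E, read 13.03, 13.30 and 13.77 in Abi_Ctrl, 12.96, 13.32 and 13.86 in Abi_Dex, 12.55, 12.69 and 12.97 in Enza_Ctrl, and 12.54, 13.20 and 13.47 in Enza_Dex. MT1B read 13.28, 13.24 and 13.42, then 13.03, 13.27 and 14.01, then 12.59, 12.81 and 13.06, then 12.80, 13.20 and 13.73. Both were lower on all Enza_Ctrl arrays than on any Abi_Ctrl array, as 8.22% of all genes were. The differences were -0.62 ± 0.32 and -0.49 ± 0.31, and neither was called (limma adjusted p = 0.432 and 0.433). Both had replicate 3 highest in all 4 groups, and they correlated with the 6 metallothioneins at 0.77 to 0.98. Their rows can share RNA with the members, so they may not be separate readings. MT1IP, a pseudogene beside MT1X, was at 0.59 ± 0.25 after dexamethasone in LNCaPabl-Enza without Enza_Ctrl 2 (unadjusted p = 0.0338, limma adjusted p = 1.00) and at -0.02 ± 0.45 with it. MT3 and MT4, the brain and squamous epithelial members of the family, and MT1HL1 gave no difference past the test, and each was highest on Enza_Ctrl 2, at 7.64, 6.24 and 7.14.

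The 5 genes outside the members that most resembled the per-array metallothionein mean, over 11 arrays, were MT1L (Pearson r 0.96, Spearman rho 0.94), AADAT (0.94, 0.95), ZHX3 (0.94, 0.92), MT1B (0.93, 0.85) and MT1IP (0.91, 0.89). AADAT, on chromosome 4, encodes an aminotransferase of lysine and kynurenine metabolism, and ZHX3, on chromosome 20, a zinc finger and homeobox protein. With all 12 arrays the r values were 0.92, 0.77, 0.86, 0.89 and 0.01. NR3C1 was at 0.55 (rho 0.25) and SGK1 at 0.46 (rho 0.45) over 11 arrays.

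The rest of zinc and copper handling gave as few calls. All 9 listed SLC30 zinc exporters and all 14 SLC39 importers were measured, and 0 of either list were called after dexamethasone in either line. Of all genes 0.0283% and 0.141% (12 and 11 arrays) were called in LNCaPabl-Abi and 0.0% in LNCaPabl-Enza. In LNCaPabl-Abi 0 exporters had an unadjusted p under 0.05 with either set. Of the importers 0 did with 12 arrays and 2 of 14 with 11, where 1.36% and 7.09% of all genes did. There 12 of 14 importers were above 0, where 50.4% of all genes were, with a median of 0.18 against 0.0023 over all genes. SLC39A11, a zinc importer, had the smallest p of that list at 0.92 ± 0.47, and at 0.92 ± 0.35 in the fit over 11 arrays (unadjusted p = 0.0185, limma adjusted p = 0.619). Its Abi_Ctrl arrays ran from 7.44 to 9.47 and its Abi_Dex arrays from 9.33 to 9.57. In LNCaPabl-Enza 0 of either list had an unadjusted p under 0.05, where 3.96% and 3.0% of all genes did. The importer median in this line was 0.57 with 12 arrays and 0.04 without Enza_Ctrl 2.

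The exporters had list medians of -0.04 in LNCaPabl-Abi and 0.19, or 0.07 without Enza_Ctrl 2, in LNCaPabl-Enza. Their smallest p in LNCaPabl-Abi belonged to SLC30A10, which also carries manganese, at -0.43 ± 0.31. In LNCaPabl-Enza it belonged to SLC30A6 with 12 arrays (0.55 ± 0.31, limma adjusted p = 0.523, and 0.14 ± 0.19 without Enza_Ctrl 2). With 11 arrays it belonged to SLC30A8, the zinc transporter of insulin granules (0.55 ± 0.26, adjusted p = 1.00), which was at -0.69 ± 0.79 with 12. SLC30A8 read 2.92 to 4.02 on those LNCaPabl-Enza arrays without Enza_Ctrl 2, below the mean of the background rows. Among the importers the same place was held in LNCaPabl-Enza by SLC39A5 with 12 arrays (0.68 ± 0.34, and 0.23 ± 0.21 with 11). With 11 arrays it was held by SLC39A12 (0.30 ± 0.20, and -0.64 ± 0.60 with 12), which read 2.74 to 3.30 there without Enza_Ctrl 2, also below the background mean.

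The 11 copper genes, whose products supply or remove the other main metal bound by metallothioneins, had medians of 0.21 in LNCaPabl-Abi and 0.16 in LNCaPabl-Enza, or 0.02 without Enza_Ctrl 2, and 0 were called in either line. Of all genes 0.0283% and 0.141% (12 and 11 arrays) were called in LNCaPabl-Abi and 0.0% in LNCaPabl-Enza. The unadjusted shares were 1.36% and 7.09% in LNCaPabl-Abi and 3.96% and 3.0% in LNCaPabl-Enza. SLC31A2, a copper transporter, was the only one of the 11 with an unadjusted p under 0.05, at 0.0478 in LNCaPabl-Enza with 12 arrays (1.12 ± 0.51, limma adjusted p = 0.523), and it was at 0.38 ± 0.24 without Enza_Ctrl 2. The other genes with the smallest p were COX17, the copper chaperone of cytochrome oxidase (-0.32 ± 0.23), and ATP7B, a copper-exporting ATPase (0.40 ± 0.21 over 11 arrays), in LNCaPabl-Abi. In LNCaPabl-Enza over 11 arrays it was STEAP4, a metalloreductase, at -0.38 ± 0.23, and at -1.68 ± 0.81 with 12.

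The metal and oxidative stress list, 9 of 10 measured, held 0 calls for dexamethasone and 0 genes with an unadjusted p under 0.05 in either line, with medians of -0.03 in LNCaPabl-Abi and 0.12, or 0.02 without Enza_Ctrl 2, in LNCaPabl-Enza. Of all genes 0.0283% and 0.141% (12 and 11 arrays) were called in LNCaPabl-Abi and 0.0% in LNCaPabl-Enza. The unadjusted shares were 1.36% and 7.09% in LNCaPabl-Abi and 3.96% and 3.0% in LNCaPabl-Enza. HMOX1, heme oxygenase, was at -0.17 ± 0.27 and GCLC, of glutathione synthesis, at -0.43 ± 0.22 over 11 arrays in LNCaPabl-Abi. In LNCaPabl-Enza OSGIN1 was at 1.24 ± 0.72 with 12 arrays and 0.12 ± 0.27 with 11, and SRXN1 at 0.23 ± 0.41 and -0.30 ± 0.25. NQO1, a quinone reductase of the oxidative stress response, differed between the lines, with means of 13.33 ± 0.24 in Enza_Dex and 12.11 ± 0.49 in Abi_Dex (SD, n = 3). It was called at 1.22 ± 0.29 (95% interval 0.60 to 1.83, fold 2.32, limma adjusted p = 0.0393) in the fit over 11 arrays and not with 12 (adjusted p = 0.338). Between the untreated lines its difference was 1.07 ± 0.33 with 12 arrays and 1.10 ± 0.32 with 11, with adjusted p-values of 0.331 and 0.143.

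Of the coding genes that flank the cluster, 9 of 10 measured, none was called for dexamethasone and 0 had an unadjusted p under 0.05 in either line, with medians of 0.01 in LNCaPabl-Abi and 0.23, or 0.06 without Enza_Ctrl 2, in LNCaPabl-Enza. The share of all genes called in LNCaPabl-Abi was 0.0283% with 12 arrays and 0.141% without Enza_Ctrl 2. In LNCaPabl-Enza it was 0.0% with either set. Shares with an unadjusted p under 0.05 were, in the same order, 1.36% and 7.09% in LNCaPabl-Abi and 3.96% and 3.0% in LNCaPabl-Enza. NUP93, a nuclear pore gene, was at 0.42 ± 0.28 in LNCaPabl-Abi. BBS2, of the ciliary BBSome, was at 1.70 ± 0.92 in LNCaPabl-Enza with 12 arrays (limma adjusted p = 0.523) and at 0.20 ± 0.19 without Enza_Ctrl 2, on which it read 5.54 against 10.00 and 10.09 on the other Enza_Ctrl arrays. NUP93 was at 0.19 ± 0.28 and 0.29 ± 0.27.

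**Figure D5:**
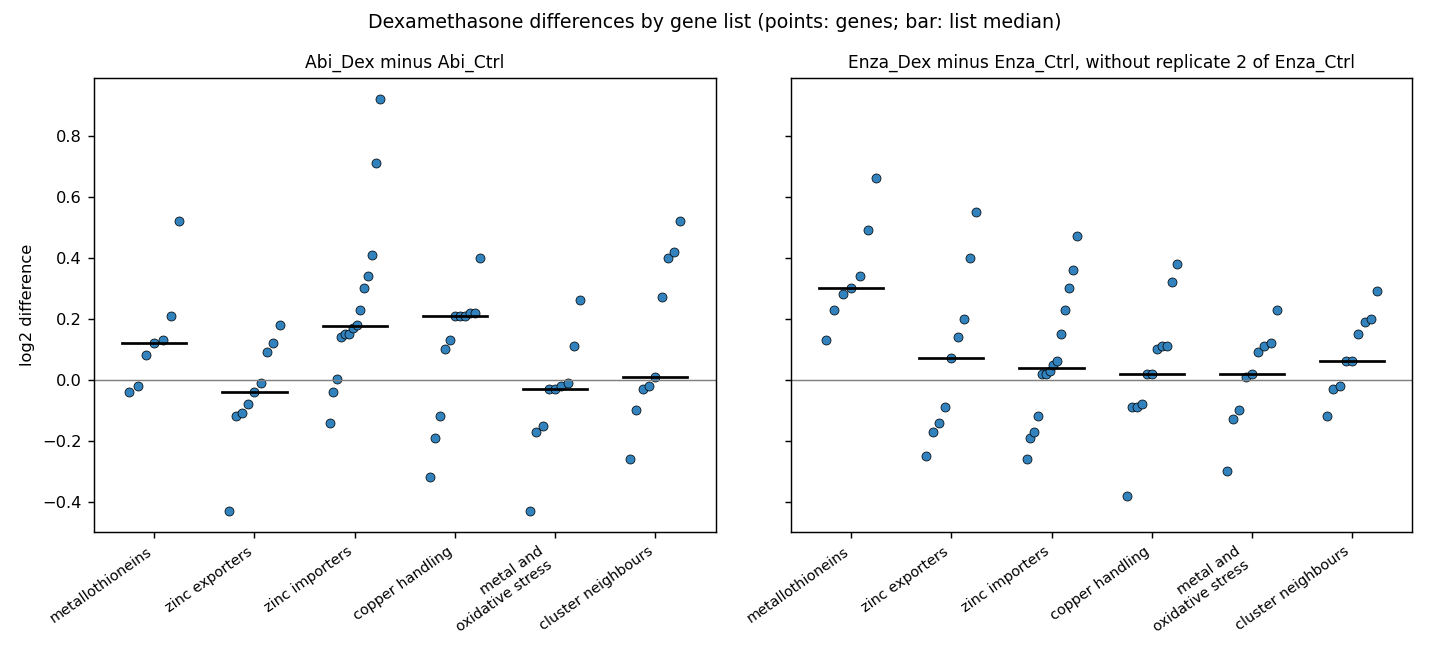
Log2 difference after dexamethasone (y axis) of each measured gene (points) in 6 lists (x axis), with the list median as a bar, in LNCaPabl-Abi (left, 12 arrays) and LNCaPabl-Enza (right, without Enza_Ctrl replicate 2). The 7 metallothioneins have medians of 0.12 and 0.30, with MT1X highest in both lines (0.52 and 0.66), and points of every list lie on both sides of 0 except the metallothioneins in LNCaPabl-Enza.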

How the data were processed

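Arrays were assigned to the 4 groups, 3 to each, by their titles. The values, as the authors deposited them, are on the log2 scale, with 1 row per transcript cluster. Affymetrix Expression Console, RMA and limma are listed in the submitters' processing notes, with no version numbers. RMA removes background, makes the distributions of the arrays alike and merges the probe values of a row, so probes shared between paralogs blend their RNA. Values spanned 1.66 to 18.63, a wide range for RMA, so folds here are those of the deposited scale and may overstate changes in RNA. No summarisation option or build was found in the labels.

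Of 24351 rows, 17709 had 1 gene symbol in the platform annotation, and all of these matched the RefSeq gene table by Entrez identifier. The brightest row per symbol was kept, which left 17687 genes, with no filter on dim ones. All genes were fitted in R 4.3.3 with limma 3.58.1, by lmFit and eBayes with 4 group means and no replicate block, with Benjamini-Hochberg adjustment within each of 5 comparisons and a threshold of 0.05. The fits were checked on simulated data with independent noise on each array. That check held no outlying array and no effect shared by replicate number, so it does not cover these features. The alternatives were each array left out, the replicate block, only the groups compared, array weights, quantile normalization, a filter on dim genes and the mean of a symbol's rows. P-values measure the spread between arrays, which may be technical, and the number of arrays limits the precision.

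Every measured member was named in each comparison. Of each further list the genes called were named, or, where none was, the gene with the smallest p after dexamethasone in each line and array set, with the other metallothionein rows, the 5 genes closest to the metallothionein mean, and SGK1 and NR3C1 as checks of the treatment. The members and lists were chosen with earlier results of these data known.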

Additional observations from a re-analysis of the deposited data

How the results depend on the processing

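No alternative gave a called member: the count was 0 of the measured members in each of the 5 comparisons, with each array left out and under every other setting run. Over these settings the calls among all genes numbered 0 to 39 for dexamethasone in LNCaPabl-Abi. They numbered 0 or 1 for dexamethasone in LNCaPabl-Enza and 0 or 1 for the difference between the responses. With so few calls, 0 members there says little about stability. Between the untreated lines they numbered 0 to 303 and between the treated lines 12 to 767. The fit of only the groups compared was not run for the difference between the responses, which needs all 4 groups. Several alternatives cannot move a member's difference (the balanced block, another group's array left out, the filter, the rows of a symbol), so the unchanged signs under these say nothing about stability. With array weights the sign turned for MT1H in LNCaPabl-Abi (0.02), for MTF1 (-0.07) and SLC30A1 (-0.03) after dexamethasone in LNCaPabl-Enza, for MT1E in the difference between the responses (0.07) and for MTF1 between the untreated lines (0.15). With quantile normalization it turned in the difference between the responses for MT1E (0.30), MT1M (-0.0026) and MT1X (-0.23). The causes were not tested. Whether the replicate numbers pair the arrays was not settled. Of 18 same-number pairs 5 had a correlation of deviations over 0.1 (range -0.04 to 0.30), while 10 of 12 arrays correlated best with an array of their own number. With the replicate block the genes called numbered 4, 0, 0, 64 and 56 for dexamethasone in LNCaPabl-Abi and LNCaPabl-Enza, the difference, the untreated lines and the treated lines, and none was a member. With the block and without Enza_Ctrl 2 they numbered 39, 0, 1, 303 and 540, and MTF1 turned after dexamethasone in LNCaPabl-Enza (-0.12) and between the untreated lines (0.17), as did MT1E in the difference (0.08).

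Leaving out each array in turn gave these ranges where a sign turned. In LNCaPabl-Abi the dexamethasone difference ran from -0.31 to 0.24 for MT1F, -0.13 to 0.22 for MT1G, -0.20 to 0.11 for MT1H, -0.05 to 0.23 for MT1M, -0.01 to 0.42 for MT2A and -0.25 to 0.04 for SLC30A1, and in LNCaPabl-Enza from -0.03 to 0.23 for MT1E, -0.10 to 0.79 for MTF1 and -0.08 to 1.29 for SLC30A1. The difference between the responses ran from -0.16 to 0.10 for MT1E, -0.23 to 0.34 for MT1X and -0.02 to 0.57 for MT2A. Between the untreated lines MT1E ran from -0.24 to 0.02 and MTF1 from -0.74 to 0.15, and between the treated lines MT1H from -0.32 to 0.07, MT1M from -0.27 to 0.07, MT2A from -0.42 to 0.17 and SLC30A1 from -0.36 to 0.25. The median over members ran from -0.13 to 0.15 in LNCaPabl-Abi and from 0.28 to 0.78 in LNCaPabl-Enza, the lowest of the second without Enza_Ctrl 2, and from -0.36 to 0.02 between the treated lines. MT1E, near background, is the member that signal limits most.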
